A study of Homo sapiens with 4 samples.

Results

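SULT2B1 and 8 further genes of sulfation are described here in A549 cells, an established line from a human lung carcinoma. The members were the listed genes SULT2B1, SULT2A1, SULT1B1, SULT1C2, SULT1C4, SULT1E1, STS, PAPSS1 and PAPSS2, each read from the transcript cluster that the platform annotation gives to that symbol alone, with the brightest cluster taken where a gene has several. All 9 were found, each with 1 cluster, among 22465 genes tested. SULT2B1 had been singled out for its difference between the groups on these same arrays, so its values are a description with no test, and the list around it was drawn up with earlier results known.

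The shINSL4 group holds 2 arrays of A549 cells transduced with a pLKO.1 lentivirus for 1 short hairpin RNA against INSL4, a peptide hormone gene of the insulin and relaxin family. The shCtl group holds 2 arrays of A549 cells transduced with a control pLKO.1 lentivirus, which the series design calls a scrambled hairpin and the sample labels a vector control. Each array came from a culture set up independently, and no source used here states how many transductions stand behind them, so a p-value covers only the variation from culture to culture. With 1 hairpin, effects of INSL4 loss and of the hairpin itself cannot be told apart.

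Sulfation joins a sulfate group to a small molecule or a sugar chain. The sulfate donor is PAPS, an activated form of sulfate that the PAPS synthases PAPSS1 and PAPSS2 make from ATP and inorganic sulfate. Cytosolic sulfotransferases, the SULT enzymes, then pass the sulfate to steroids, sterols, thyroid hormones, phenols and drugs, which makes them more soluble and often inactive as hormones. Steroid sulfatase, encoded by STS, takes the sulfate off again, so that sulfated steroids can serve as a reserve of active hormone. In skin the pair formed by SULT2B1 and STS sets the amount of cholesterol sulfate, and inherited loss of either gene causes a form of ichthyosis.

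The group labels were checked on INSL4 first. Its level was 7.26 and 7.22 on the shINSL4 arrays, against 9.03 and 8.92 on the shCtl arrays, in log2 units of RMA, the summary of array signal that the authors deposited. INSL4 was lower by 3.32-fold in shINSL4 (log2 fold change -1.73, SE 0.0684, adjusted p = 0.000142, limma with Benjamini-Hochberg adjustment over all tested genes). Array medians were 6.98 and 6.97 in shINSL4 and 6.94 and 6.91 in shCtl, and over all tested genes the log2 fold change had a median of 0.08. All 5 epithelial markers and all 4 measured markers of high NRF2 output in A549 cells gave levels of 6.56 or more on every array. That level does not set them apart. Markers of blood, endothelial and stromal cells ran from 3.86 to 9.25 in shINSL4 and from 3.72 to 10.08 in shCtl. At an adjusted p under 0.05 in limma, 6.41% of all tested genes were higher in shINSL4 and 9.42% lower. Of the epithelial markers 4 were lower, with KRT18 at a log2 fold change of -0.54 (adjusted p = 0.00235). Of the 7 measured markers of blood, endothelial and stromal cells, 1 was higher and 1 lower. The lower one was CD68, a macrophage marker, at -0.81 (adjusted p = 0.000574 in limma). The higher one, the stromal proteoglycan gene DCN, lost its call in 7 of 11 refits and gave 0.07 as the mean over its 2 rows (adjusted p = 0.571). Among the epithelial markers, KRT8 lost its call in 4 of 12 refits and EPCAM in 2 of 12. Their part in the differences below was not tested.

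SULT2B1 encodes a sulfotransferase that acts on cholesterol, oxysterols and other 3-beta-hydroxysteroids. Its level was 7.95 and 8.00 in shINSL4, against 9.82 and 9.83 in shCtl. The groups did not overlap, with shINSL4 below, and the values within a group were close together. The means were 7.98 ± 0.0383 in shINSL4 and 9.82 ± 0.00424 in shCtl (SD, n = 2 each), a log2 fold change of -1.85, or 3.60-fold lower in shINSL4. In the ordering of all tested genes by log2 fold change, SULT2B1 stood at place 10 from the lowest. In bulk cultures, fewer cells that express a gene and less of its RNA per cell cannot be told apart. SULT2B1 has 2 RefSeq protein isoforms from different first exons, and the single cluster does not separate them.

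**Figure D1:**
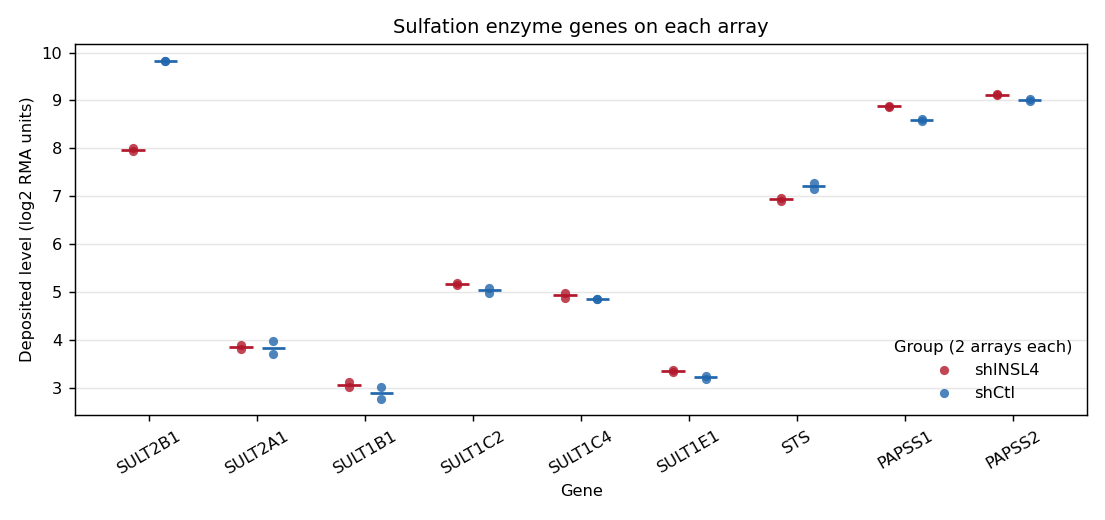
Deposited log2 RMA level (vertical axis) of the 9 sulfation genes on each array, with points for single arrays and a bar for the group mean. SULT2B1 sits at 7.95 and 8.00 in shINSL4 and at 9.82 and 9.83 in shCtl. For the other sulfotransferases the groups lie near each other. The shCtl arrays spread more for SULT2A1 (3.97 and 3.70) and SULT1B1 (3.01 and 2.78) than for SULT2B1. Levels carry each gene's probe affinity and are not compared between genes.

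The stretch around the start of SULT2B1 is shown because this gene had the largest difference among the members. It spans 250 bases before to 50 bases after the RefSeq start, at chr19:48551922-48552221 on the plus strand of GRCh38.p14, and capitals mark a GC box (GGGCGG on either strand), a short motif bound by SP-family factors.
SULT2B1: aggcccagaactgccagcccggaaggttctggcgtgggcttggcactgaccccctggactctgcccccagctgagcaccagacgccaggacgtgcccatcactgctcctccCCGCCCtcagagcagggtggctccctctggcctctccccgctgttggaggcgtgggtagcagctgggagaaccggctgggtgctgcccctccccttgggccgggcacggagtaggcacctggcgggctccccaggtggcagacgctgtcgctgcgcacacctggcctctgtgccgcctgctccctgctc
The GC box lies at positions -139 to -134 from the start, and 45% of the 35116 promoters in the RefSeq table hold one. The window has a GC content of 70.7%. It is the 1 start window that the RefSeq table holds for SULT2B1, and a start elsewhere in the gene was not searched. It has no match to the cyclic AMP response element TGACGTCA, its 5-base part TGACG, the E-box CACGTG, the AP-1 site TGANTCA or the TATA box TATAAA. These motifs were searched on both strands, and TGACG also lies within every TGACGTCA.

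The 4 tested genes next to SULT2B1 in the GRCh38.p14 gene table were chosen here by position. LMTK3, a kinase gene, had a log2 fold change of 0.15 (SE 0.0713) and CYTH2, which activates ARF GTPases, one of 0.20 (SE 0.0631). On the other side FAM83E had 0.19 (SE 0.0715) and SPACA4, a sperm membrane protein gene, 0.13 (SE 0.0750). None of the 4 passed, with adjusted p-values of 0.0832 to 0.257 (limma with Benjamini-Hochberg adjustment).

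The other 5 sulfotransferase members did not pass the test. SULT2A1, the classical sulfotransferase for the adrenal steroid DHEA and for bile acids, is best known from liver and adrenal. Its level was 3.82 and 3.88 in shINSL4 and 3.97 and 3.70 in shCtl, so the groups overlapped. The log2 fold change was 0.02, with a 95% interval of -0.21 to 0.25 (adjusted p = 0.900, limma with Benjamini-Hochberg adjustment). SULT2A1 is the other member of the SULT2 subfamily listed here.

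SULT1E1 has the highest affinity for oestrogens of the human SULT enzymes. It read 3.34 and 3.37 in shINSL4, against 3.19 and 3.25 in shCtl, with a log2 fold change of 0.13 (95% interval -0.02 to 0.28, adjusted p = 0.187). SULT1B1, which sulfates thyroid hormones and phenols, lies beside SULT1E1 in the gene table. It read 3.12 and 3.01 in shINSL4 and 3.01 and 2.78 in shCtl, with a log2 fold change of 0.17 (95% interval -0.05 to 0.39, adjusted p = 0.226). For SULT1E1 the arrays were separated by group, with shINSL4 above, and for SULT1B1 they were not. Beyond this pair lie UGT2B4 and UGT2B28, genes of glucuronidation, the other main conjugation route for steroids. Both are named because they passed, and both lie in the lowest 40% of tested genes by mean level. UGT2B4 read 3.56 and 3.58 in shINSL4, against 3.81 and 3.95 in shCtl. It fell by 0.30 on the log2 scale (adjusted p = 0.0326 in limma), and 4 of 11 refits lost the call. UGT2B28 read 4.17 and 4.46 in shINSL4, against 5.06 and 4.98 in shCtl, and fell by 0.70 (adjusted p = 0.00570). Whether other genes of their closely related family share these signals was not tested.

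SULT1C2 and SULT1C4 belong to a cluster of SULT1C genes and sulfate phenolic compounds. SULT1C2 read 5.18 and 5.15 in shINSL4, against 5.10 and 4.97 in shCtl, a log2 fold change of 0.13 (95% interval -0.03 to 0.30, adjusted p = 0.212). SULT1C4, known from fetal tissues, read 4.99 and 4.87 in shINSL4 and 4.85 and 4.86 in shCtl, a log2 fold change of 0.08 (95% interval -0.09 to 0.24, adjusted p = 0.424). For both genes the arrays were separated by group with shINSL4 above, by a small step. Such a separation was common on these arrays: 48% of all tested genes had both shINSL4 arrays above both shCtl arrays, 20.8% had them below, and so 68.9% did not overlap in either direction. Among the 9 members 5 were separated with shINSL4 above and 2 with it below.

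Of the 8 members in the promoter table, SULT1C4 was the one with a full cyclic AMP response element in its RefSeq promoter window. It is shown for that reason beside SULT2B1, whose 1 window has none. The window is chr2:108377704-108378003 on the plus strand of GRCh38.p14, with the element TGACGTCA and a TATA box in capitals.
SULT1C4: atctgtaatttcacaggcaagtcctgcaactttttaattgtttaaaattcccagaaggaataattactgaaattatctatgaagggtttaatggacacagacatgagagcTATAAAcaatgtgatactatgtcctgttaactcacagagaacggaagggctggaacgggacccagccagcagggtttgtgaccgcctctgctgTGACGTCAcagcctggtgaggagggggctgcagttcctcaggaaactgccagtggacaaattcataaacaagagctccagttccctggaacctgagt
The element lies at positions -47 to -40 and the TATA box at -140 to -135 from the start. Such an element stands in 1.85% of all promoters in the table, and a TATA box in 11.5%. CREB, the factor that binds this element, is held active by CRTC coactivators in LKB1-deficient cells such as A549. The match describes letters only.

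Together, the 5 sulfotransferases other than SULT2B1 had log2 fold changes of 0.02 to 0.17, with a median of 0.13, beside a median of 0.08 over all tested genes. All 5 belong to the lowest 40% of tested genes by mean level, where little or no expression and weak expression cannot be told apart by these values. The sign of the small differences depended on scaling: after median centring SULT2A1 was below 0, and after quantile or cyclic loess normalization SULT2A1 and SULT1C4 were. Outside the members, 5 more SULT symbols were measured, and 0 of them passed by limma with Benjamini-Hochberg adjustment or at an unadjusted p under 0.05. Their median log2 fold change was 0.08. SULT1A1, the main phenol sulfotransferase, read 7.59 and 7.61 in shINSL4, against 7.69 and 7.63 in shCtl, with a log2 fold change of -0.06 (95% interval -0.21 to 0.09, adjusted p = 0.501). The brain enzyme gene SULT4A1 had a log2 fold change of 0.08, SULT6B1 one of 0.06, SULT1C3 one of 0.18 and the pseudogene SULT1C5P one of 0.11.

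**Figure D2:**
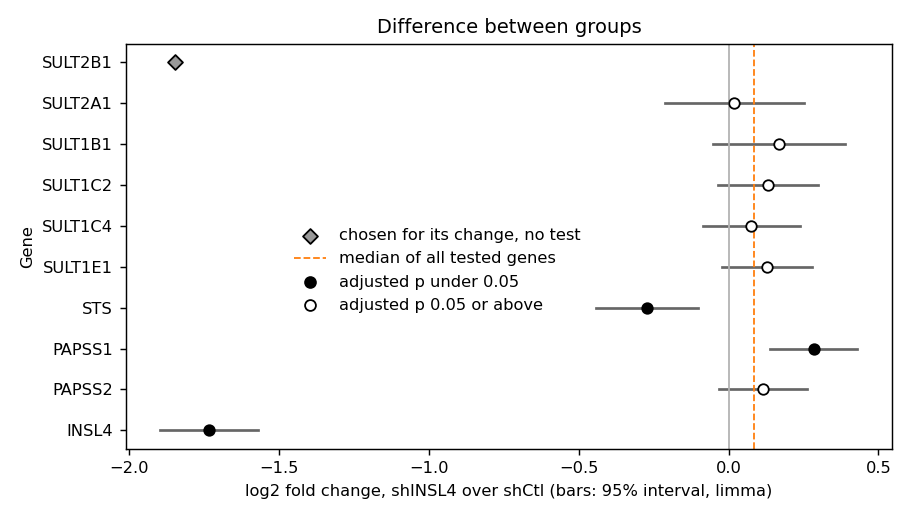
Log2 fold change of shINSL4 over shCtl (horizontal axis) for the 9 sulfation genes and INSL4, with 95% intervals from limma and a dashed line at 0.08, the median of all tested genes. SULT2B1, drawn as a grey diamond with no test, lies at -1.85 near INSL4 at -1.73, and the sulfotransferases below it lie between 0.02 and 0.17.

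STS, the enzyme that removes sulfate from cholesterol sulfate, DHEA sulfate and oestrone sulfate, fell. Its level was 6.97 and 6.91 in shINSL4, against 7.28 and 7.15 in shCtl. Both shINSL4 arrays were below both shCtl arrays, by less than the step seen for SULT2B1. The means were 6.94 ± 0.0428 in shINSL4 and 7.21 ± 0.0901 in shCtl (SD, n = 2 each), which is 1.21-fold lower (log2 fold change -0.27, SE 0.0713, adjusted p = 0.0472, limma with Benjamini-Hochberg adjustment). The call was lost without shCtl replicate 1 (adjusted p = 0.0715), shINSL4 replicate 1 (0.141) or shINSL4 replicate 2 (0.269), over a range of 0.0118 to 0.269 in 12 refits. STS has a pseudogene copy elsewhere in the genome, and whether its cluster also reads that copy was not tested.

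PUDP, a phosphatase gene that meets STS at its start in the gene table, had a log2 fold change of 0.13 (adjusted p = 0.180). MIR4767, a microRNA gene that lies within STS, had one of 0.19 (adjusted p = 0.125). The RefSeq table holds 5 start windows for STS. The first, chrX:7147040-7147339 on the plus strand of GRCh38.p14, is shown because STS was the one member besides SULT2B1 that was lower, with the 5-base part TGACG of the cyclic AMP response element in capitals.
STS: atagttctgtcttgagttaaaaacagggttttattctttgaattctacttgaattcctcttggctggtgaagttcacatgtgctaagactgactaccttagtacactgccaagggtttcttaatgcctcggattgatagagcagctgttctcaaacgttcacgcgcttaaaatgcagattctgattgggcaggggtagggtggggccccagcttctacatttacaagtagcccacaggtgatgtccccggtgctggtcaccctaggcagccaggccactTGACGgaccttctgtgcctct
The motif lies at positions 30 to 34 after the start and stands in 24.6% of all promoters. This window shares none of the searched motifs with that of SULT2B1, but the second STS window holds a GC box, at positions 31 to 36.

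PAPSS1, the PAPS synthase present in most tissues, rose. It read 8.87 and 8.88 in shINSL4, against 8.57 and 8.61 in shCtl. Both shINSL4 arrays stood above both shCtl arrays, and the arrays of each group lay close together. The means were 8.88 ± 0.00875 in shINSL4 and 8.59 ± 0.0252 in shCtl (SD, n = 2 each), which is 1.22-fold higher (log2 fold change 0.28, SE 0.0608, adjusted p = 0.0238, limma with Benjamini-Hochberg adjustment). The call was lost in 3 of 12 refits: after median centring (adjusted p = 0.0517 in limma) and without shINSL4 replicate 1 or 2. Without those arrays the log2 fold change was 0.29 and 0.28, with an SE of 0.131. Next to PAPSS1 in the gene table lies SGMS2, a sphingomyelin synthase gene, named because it passed, as 15.8% of all tested genes did. SGMS2 fell by 1.13 on the log2 scale (adjusted p = 0.000260 in limma), with 6.28 and 6.19 in shINSL4 and 7.32 and 7.42 in shCtl. As the mean over its clusters it fell by 0.57. The other neighbours read beside PAPSS1 did not pass, with adjusted p-values of 0.0955 to 0.344.

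PAPSS2, the second PAPS synthase, supplies sulfation in cartilage and the sulfation of DHEA in the adrenal. It read 9.11 and 9.13 in shINSL4, against 8.98 and 9.03 in shCtl, with the arrays separated by group and shINSL4 above. The log2 fold change was 0.11 (SE 0.0617, 95% interval -0.03 to 0.26, adjusted p = 0.220), which did not pass. Whether PAPSS1 and PAPSS2 differ in their change was not tested. The PAPSS1 window, chr4:107720185-107720484 on the minus strand of GRCh38.p14, is shown as that of the one member that rose, with its 3 GC boxes in capitals.
PAPSS1: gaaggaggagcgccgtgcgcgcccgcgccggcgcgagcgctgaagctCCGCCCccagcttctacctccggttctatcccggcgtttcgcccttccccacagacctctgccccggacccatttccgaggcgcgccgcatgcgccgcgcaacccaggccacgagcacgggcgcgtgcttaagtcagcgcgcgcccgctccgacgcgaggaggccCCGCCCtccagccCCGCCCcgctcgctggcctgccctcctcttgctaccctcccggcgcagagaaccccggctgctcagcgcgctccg
The boxes lie at positions -203 to -198, -38 to -33 and -25 to -20 from the start. The GC content is 74.7%, against 70.7% in the SULT2B1 window, and whether either bears on the changes was not tested.

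In all, 1 of the 9 members was higher and 2 were lower at an adjusted p under 0.05, where 6.41% of all tested genes were higher and 9.42% lower. One of the 2 lower members is SULT2B1, whose difference was known when the list was made, so nothing is read from that count. Outside SULT2B1 the changes that passed were of 1.22-fold or less, and the remaining 6 members did not pass.

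The 5 tested genes whose levels over the 4 arrays were nearest to those of SULT2B1, after subtracting each gene's mean, were ATP2B1, MDH2, PCYOX1, HPRT1 and INSL4 itself. The measure was the Euclidean distance over 4 arrays, which came to 0.101 for ATP2B1, a calcium pump gene of the plasma membrane, and to 0.103 for MDH2, the mitochondrial malate dehydrogenase. It was 0.117 for PCYOX1, a prenylcysteine oxidase, 0.156 for HPRT1 of purine salvage and 0.157 for INSL4. The median distance of all other genes was 1.94, and 268 of 22464 lay within 1. ATP2B1 read 8.47 and 8.52 in shINSL4, against 10.22 and 10.30 in shCtl. The step of INSL4 between the groups, -1.73 on the log2 scale, was close to the -1.85 of SULT2B1. With 4 arrays in 2 groups the distance mainly compares the size of that step.

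**Figure D3:**
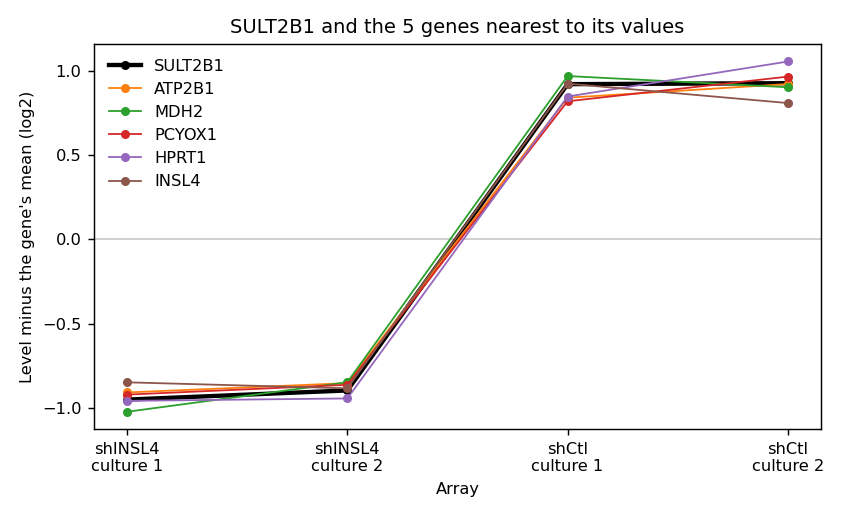
Level minus the gene's own mean (log2, vertical axis) on the 4 arrays for SULT2B1, drawn as a thick line, and the 5 genes with the nearest values. SULT2B1 lies at -0.95 and -0.90 on the shINSL4 arrays and at 0.92 and 0.93 on the shCtl arrays, and the other 5 genes follow it closely.

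Genes that act before and after the members were read from 12 lists. The counts of each list stand beside 6.41% of all tested genes that rose and 9.42% that fell. For PAPS supply and clearance 4 of 6 symbols were measured: PAPSS1 rose and 0 fell, with a median log2 fold change of 0.12. SLC35B3, which carries PAPS into the Golgi, had a log2 fold change of 0.13 (adjusted p = 0.205), and BPNT1, which clears the by-product of sulfation, one of -0.12 (adjusted p = 0.249). Of 10 measured sulfate transporters 1 fell and 0 rose, with a median of 0.07. The one that fell was SLC26A2, the widely expressed sulfate carrier whose loss impairs cartilage sulfation. It read 6.06 and 6.16 in shINSL4, against 6.58 and 6.79 in shCtl (log2 fold change -0.58, SE 0.0881, adjusted p = 0.00697, limma with Benjamini-Hochberg adjustment).

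Sulfatases and their activators moved in both directions. Of 18 measured, 3 rose and 3 fell, where 6.41% of all tested genes rose and 9.42% fell. The median was 0.11. Besides STS, IDS, which removes sulfate from heparan and dermatan sulfate in lysosomes, fell by 0.67 on the log2 scale (adjusted p = 0.000983), and ARSD, a neighbour of STS in the arylsulfatase family, fell by 0.46 (adjusted p = 0.00402). SULF2, an extracellular heparan sulfatase, rose by 1.25 (adjusted p = 0.000154), and GALNS, a lysosomal sulfatase for keratan sulfate, rose by 0.24 (adjusted p = 0.0429). Of 22 Golgi sulfotransferases, which use PAPS for proteins and sugar chains, 2 rose and 3 fell, with a median of 0.10. UST fell by 0.44 and GAL3ST1, which makes sulfatide, by 0.43 on the log2 scale, while the dermatan sulfate enzyme gene CHST14 rose by 0.30. Of 13 genes that oxidise sulfur amino acids to sulfate, 1 rose and 2 fell, with a median of 0.11.

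Sterols are substrates of SULT2B1, and oxysterols are ligands of the liver X receptors. Of 9 measured genes of oxysterol formation, further conversion and sterol storage, 3 rose and 0 fell, with a median of 0.16. The 3 were SOAT1, CYP7A1 and CYP39A1, which acts on oxysterols already formed. CYP46A1, which forms an oxysterol, did not pass (log2 fold change 0.16, adjusted p = 0.174 in limma). CYP39A1 was dim, at 4.25 and 4.34 in shINSL4 and 4.03 and 3.98 in shCtl. It lost its call in 7 of 11 refits, the other scalings and the variance trend among them. Its log2 fold change ran from 0.19 to 0.33 over the 11. SOAT1, which esterifies cholesterol, read 9.77 and 9.84 in shINSL4, against 9.35 and 9.49 in shCtl (log2 fold change 0.38, SE 0.0745, adjusted p = 0.0172). CYP7A1, the first enzyme of bile acid synthesis, rose by 0.46 on the log2 scale, at dim levels of 3.78 and 3.85 in shINSL4 and 3.40 and 3.32 in shCtl. Of 14 measured liver X receptor genes and targets, 0 rose and 0 fell by limma with Benjamini-Hochberg adjustment, and before adjustment 3 were higher and 1 lower at p under 0.05. Their median was 0.08, that of all tested genes. The cholesterol exporter gene ABCA1, named after values were seen, read 6.41 on both shINSL4 arrays, against 6.46 and 6.44 in shCtl. Its log2 fold change was -0.04 (SE 0.0601). Like SULT2A1, ABCA1 lies in the dim part of the tested genes by mean level. There, little or no expression and weak expression cannot be told apart by these values.

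Steroid sulfates need carriers to cross membranes. Of 17 measured transporters that carry them, 4 rose and 2 fell, with a median of 0.06. The exporter gene ABCG2 read 8.58 and 8.68 in shINSL4, against 9.50 and 9.67 in shCtl, and fell by 0.96 on the log2 scale (SE 0.0791, adjusted p = 0.000698). ABCC2, another exporter, rose by 0.48 (adjusted p = 0.00419). The uptake carriers SLCO4C1 and SLCO2B1 rose by 0.47 (adjusted p = 0.00788) and 0.37 (adjusted p = 0.00974). Of 21 genes of steroid hormone conversion 1 rose and 0 fell, with a median of 0.10. The one that rose was HSD17B7, which acts on oestrone and in cholesterol synthesis (log2 fold change 0.52, adjusted p = 0.00844).

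The epidermal barrier list holds genes that act with cholesterol sulfate and ceramides in skin. Of 16 measured, 1 rose and 0 fell, with a median of 0.15. That gene was ABCA12, the lipid carrier of keratinocyte granules, at 9.38 and 9.35 in shINSL4, against 7.97 and 8.06 in shCtl. The list of nuclear receptors known to control SULT genes also holds AHR, a receptor of another transcription factor family. Of the 9 measured genes on that list 0 rose and 1 fell, with a median of -0.02. The one that fell was AHR, by 0.31 on the log2 scale (adjusted p = 0.0292 in limma). Among the list genes named here, GALNS, CHST14, SOAT1, SLCO2B1 and AHR lost their call in some of 12 refits. Without shINSL4 replicate 1 GALNS, CHST14 and SLCO2B1 lost it, at log2 fold changes of 0.25, 0.28 and 0.35. Without shINSL4 replicate 2 GALNS, CHST14, SOAT1 and AHR lost it, at 0.23, 0.33, 0.35 and -0.24. AHR lost it without shCtl replicate 1, at -0.29. Without shCtl replicate 2 GALNS, CHST14 and AHR lost it, at 0.23, 0.28 and -0.32. GALNS also lost it after median centring (adjusted p = 0.0843 in limma), and AHR after quantile (0.0998) or cyclic loess (0.0530) normalization. Over all tested genes 15.8% passed in either direction, and the lists are given as counts beside that share.

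**Figure D4:**
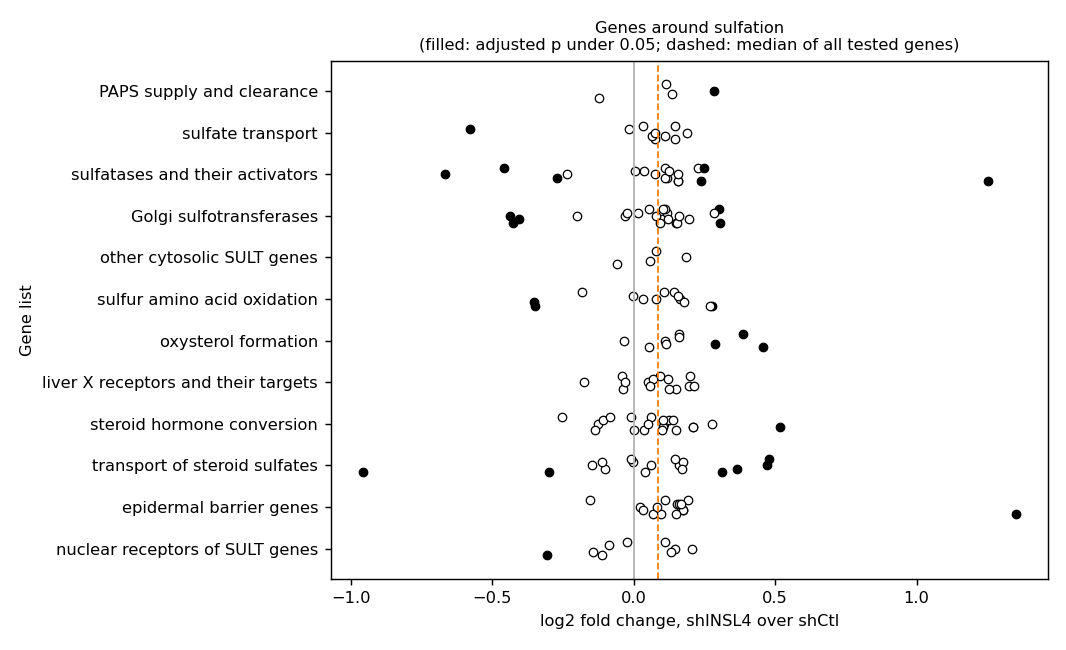
Log2 fold change of shINSL4 over shCtl (horizontal axis) for every measured gene of the 12 lists around sulfation, 1 point per gene, filled where the adjusted p was under 0.05. Most points lie near the dashed line at 0.08, and ABCA12 at 1.35, SULF2 at 1.25 and ABCG2 at -0.96 stand farthest out.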

How the data were processed

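Levels were measured on 4 Affymetrix arrays, 2 per group. The authors deposited log2 values; per the submitters' processing notes the method was RMA and the program Affymetrix Expression Console. That they are log2 was read from their range. For versions, annotation release and genome build: not given in the sources used here. Of 67528 transcript clusters, 23781 had 1 gene symbol, 1543 several and 42204 none listed; gene IDs changed 0 symbols. The brightest cluster per gene left 22465 genes, with no filter on dim genes and no further normalization.

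The test was limma 3.58.1 under R 4.3.3 (lmFit, group term, eBayes, two-sided; 2 residual and 4.68 prior degrees of freedom), with Benjamini-Hochberg adjustment over all tested genes at 0.05, and the steps were tested on simulated data. Intervals are limma's 95% intervals. The number of arrays limits precision. Members, lists (175 symbols, 157 measured) and tests were chosen with earlier results of these data known. Genes named are the members, INSL4, other SULT symbols, at most 4 per list by smallest p, the 5 nearest to SULT2B1, and, chosen after values were seen, chromosomal neighbours and ABCA1. Apart from SULT genes, neighbours of members other than SULT2B1 and STS were named only where they passed. Promoter sequences are RefSeq's for GRCh38.p14, and 8 of 9 members matched; the gene table of that build gave neighbours by order only. Alternatives were a replicate block, a variance trend, a level filter, 3 scalings, other cluster rules, a looser threshold and leaving out each array.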

Additional observations from a re-analysis of the deposited data

How the results depend on the processing

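Of the 9 members, 1 was higher and 2 were lower in shINSL4 as deposited. Both counts stayed the same under the replicate block, the variance trend, and quantile and cyclic loess normalization. They also did under the level filter, which kept 4 of the 9 members. Both cluster rules and an adjusted p of 0.1 gave the same counts too. Each member has 1 cluster, so the cluster rules could not change its values, and a looser threshold cannot lose a call. After median centring 0 members were higher, which is the loss of PAPSS1. With single arrays left out, the log2 fold change of STS ran from -0.34 to -0.21 and that of PAPSS1 from 0.27 to 0.30. A lone array gives no spread of its own, so those fits take it from the other group. Without shINSL4 replicate 1 or 2 the fit gave all members the same SE, 0.131. Calls in those 2 fits follow the size of the fold change alone. The log2 fold change of SULT2B1 was -1.90 after median centring and -1.78 after quantile normalization, and ran from -1.88 to -1.82 with single arrays left out; in the other refits it moved by less than the spread within groups. The replicate block (log2 fold change of SULT2B1 -1.85) changed no call among the members, though over all genes it gave 2996 higher and 2605 lower, against 1440 and 2117 without it. It added calls for HSD17B4, HSD17B12, SRD5A2 and PPARG. The titles give same-numbered arrays of both groups a common code, WA or WB, whose meaning is not stated. With 2 pairs, deviations of same-numbered arrays correlated at 0.23 across genes, so whether the numbers mark a shared batch is not settled. Centring gave 808 higher and 2347 lower genes, cyclic loess 904 and 2381, and an adjusted p of 0.1 2955 and 2647. For the 82 other genes named or listed by the rule, 952 of 1042 refitted values stayed on their side of the threshold, 52 lost it and 38 gained it, with 0 reversed; the cause was not tested. Without shCtl replicate 1 there were 2999 higher and 2430 lower genes, without shINSL4 replicate 1 892 and 1403, and without shINSL4 replicate 2 808 and 1618. Dim clusters limit what the arrays show of 5 sulfotransferases.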
